A study of Mus musculus with 384 samples.

Results

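Hemidesmosomes are the junctions that hold basal keratinocytes to the basement membrane, and 9 genes of this junction and of its ligand were described here: Itga6, Itgb4, Itga3, Itgb1, Col17a1, Dst, Plec, Lama3 and Lamb3. They were taken by symbol from the deposited expression table, which has 46609 rows, and all 9 were found. Dst matched 2 rows. The annotated protein-coding gene ENSMUSG00000026131 was used, and ENSMUSG00000103888, with a mean of 0.331 TPM (a level per transcript length, scaled to the same total in every cell) and 2 cells at 10 TPM or more, was not.

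In a hemidesmosome the integrin α6β4 (Itga6 and Itgb4) binds laminin-332 in the basement membrane, and inside the cell the plakins plectin (Plec) and BP230 (Dst) tie it to keratin filaments. Col17a1 encodes the transmembrane collagen XVII, also called BP180, which in mouse skin is known for its role in keeping hair follicle stem cells. Lama3 and Lamb3 encode the α3 and β3 chains of laminin-332, and the integrin α3β1 (Itga3 and Itgb1) binds it outside hemidesmosomes.

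Back skin of mice at postnatal day 70 was the source of the single cells, labelled as hair follicle stem cells and amplified by the full-length Smart-seq2 protocol, in which each well of a plate is 1 library. The dKO mice were NFIBfl/fl and the cKO mice NFIBfl/+, and this allele was the only labelled difference. Both groups carried NFIXfl/fl, the inducible Cre Sox9-CreER, driven from Sox9, and the reporter R26-YFPfl/fl. The labels give no treatment for either group, and there was no group without floxed alleles. Every cell was sorted as viable, YFP-positive and positive for integrin α6, the protein of a described gene, and as either positive or negative for Sca-1, the Ly6a product, which is high on upper follicle and epidermal cells and low on bulge stem cells. The Sca-1-positive gate gave 19 dKO cells (plate 2) and 22 cKO cells (plate 3). The Sca-1-negative gate gave 93 and 61 dKO cells on plates 1 and 2, and 71, 47 and 65 cKO cells on plates 1, 2 and 3.

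No animal is named in the labels. Each genotype therefore counts as 1 sample, plates are shown one by one, and no test or p-value is given. The depth of a cell is unknown in TPM, and the median number of genes detected at 1 TPM ran from 4770 to 5199 per plate and gate. A single ribosomal RNA row, Rn18s-rs5, took 57.9% of all TPM on average, so levels of other genes are relative to it. In the Sca-1-positive gate its share was 60.9% in dKO and 60.4% in cKO, and in the Sca-1-negative gate it was 61.5% and 56.03% on the dKO plates, against 56.3%, 56.8% and 55.3% on the cKO plates. In Sca-1-negative cells Nfib averaged 58.4 and 90.4 TPM on the dKO plates, against 80.4, 72.8 and 67.1 TPM on the cKO plates, and Nfix 29.6 and 32.3 TPM on the dKO plates, against 46.7, 47.96 and 43.7 TPM on the cKO plates. A gene's TPM does not separate transcripts with and without a floxed exon, so these values check no label. All cells were labelled male, but Xist RNA marked dKO plate 1 and cKO plates 1 and 2, and Y-linked RNA marked dKO plate 2 and cKO plate 3, so comparisons of genotype were also made within each kind of plate. The sorted cells were epithelial: Krt5 averaged 752 to 1474 TPM in every plate and gate, and 0 of 378 cells carried at least 3 markers of fibroblasts, melanocytes, immune cells, endothelial and mural cells or Schwann cells. Sox9 averaged 29.96 to 52.2 TPM in the Sca-1-negative cells but 1.96 and 3.98 TPM in the dKO and cKO Sca-1-positive cells. The bulge genes Lhx2 and Cd200 were listed at 0 there, so on Sox9, Lhx2 and Cd200 the label of hair follicle stem cells did not hold for that gate. Krt15, another bulge gene, did not follow them, with 421 TPM in Sca-1-positive and 284 TPM in Sca-1-negative cells of dKO plate 2. On cKO plate 3 Krt15 stood at 436 TPM in Sca-1-positive and 440 TPM in Sca-1-negative cells.

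Sequence upstream of the annotated starts was on hand for 5 of the 9 genes (8 starts, RefSeq, GRCm38.p6). It is shown for Col17a1 and Dst, whose RNA was higher together in Cd34-positive cells as described further on, and for Lamb3, which did not pass the same rule. Each run covers the bases before the start that lie outside annotated exons, 5′ to 3′ on the strand of the gene. The Col17a1 run is chr19:47692095-47692292 (minus strand), the runs of the 2 Dst starts are chr1:34011345-34011594 and chr1:34160010-34160259 (plus strand), and the Lamb3 run is chr1:193301744-193301992 (plus strand). Capitals mark the letters TATAAA in Col17a1, GGGCGG in the first Dst start, TTGGC in the second Dst start, and in Lamb3 the same letters on the other strand, which read GCCAA.
Col17a1: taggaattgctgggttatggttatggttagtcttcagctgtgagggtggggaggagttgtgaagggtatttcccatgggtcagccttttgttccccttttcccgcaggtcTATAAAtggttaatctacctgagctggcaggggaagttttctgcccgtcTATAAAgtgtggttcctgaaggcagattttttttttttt
Dst, first start: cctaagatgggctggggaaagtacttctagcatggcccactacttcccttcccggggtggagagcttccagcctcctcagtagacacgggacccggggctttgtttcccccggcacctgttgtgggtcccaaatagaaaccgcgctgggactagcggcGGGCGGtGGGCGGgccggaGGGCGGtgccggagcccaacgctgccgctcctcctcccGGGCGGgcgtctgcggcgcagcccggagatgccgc
Dst, second start: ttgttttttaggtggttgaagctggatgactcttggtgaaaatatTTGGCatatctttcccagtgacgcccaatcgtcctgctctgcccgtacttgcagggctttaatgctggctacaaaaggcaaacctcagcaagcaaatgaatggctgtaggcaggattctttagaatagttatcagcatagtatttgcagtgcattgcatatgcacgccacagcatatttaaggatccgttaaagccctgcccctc
Lamb3, first start: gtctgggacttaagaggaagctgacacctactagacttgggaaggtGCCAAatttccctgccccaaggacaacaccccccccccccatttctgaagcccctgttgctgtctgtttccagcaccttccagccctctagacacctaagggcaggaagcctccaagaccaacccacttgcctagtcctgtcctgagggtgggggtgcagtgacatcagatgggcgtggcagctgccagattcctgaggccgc

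The motifs were searched on both strands of the 250 bases before each start. The Col17a1 window held TATAAA at 2 places, and 12.4% of the 32851 windows of the same length in the table held it at least once. The GC box GGGCGG occurred 4 times before the first Dst start, 3 times and once before the Itga3 starts and once before the Itgb1 start, not in the other 4 windows, and in 32.7% of all windows. TTGGC is a single arm of the site that nuclear factor I proteins bind, and it occurred once before the second Dst start, once before the first and 2 times before the second Lamb3 start, not in the other 5 windows, and in 41.5% of all windows. The full site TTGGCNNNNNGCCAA, which overlaps the single arm, was in none of the 8 windows and in 0.0365% of all windows, and the AP-1 letters TGANTCA were in none of the 8 and in 6.75% of all. The GC content was 46% before Col17a1, 68.8% and 45.2% before the Dst starts and 58.8% and 61.2% before the Lamb3 starts, against a median of 52.4% over all windows. These letters describe the sequence and show no binding.

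Transcript levels in the Sca-1-negative cells put the hemidesmosome genes among the more abundant RNAs. Genes with a mean of 5 TPM or more, all plates weighted equally, numbered 7060, and 98.05% of them lay below Col17a1, whose mean was 209.7 TPM (160.3 to 254.5 by plate). Plec followed with 146.3 TPM (130.98 to 161.1), then Dst with 114.98 TPM (96.97 to 128.5), Lamb3 with 104.4 TPM (76.7 to 136.7) and Itgb4 with 97.3 TPM (79.5 to 113.8). The α subunits and the shared β1 subunit stood lower, with Itga6 at 42.003 TPM (35.5 to 49.3), Itga3 at 33.6 TPM (19.3 to 55.8) and Itgb1 at 26.7 TPM (19.9 to 34.1). Lama3 was lowest with 20.001 TPM (14.6 to 23.5), and 71.02% of the measured genes lay below it. These levels are per length and can be compared between genes. In this order only Plec and Dst, and Itgb4 and Itga6, were neighbours whose plates did not overlap. Col17a1 and Plec overlapped between plates, but within each plate Col17a1 was the higher.

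**Figure D1:**
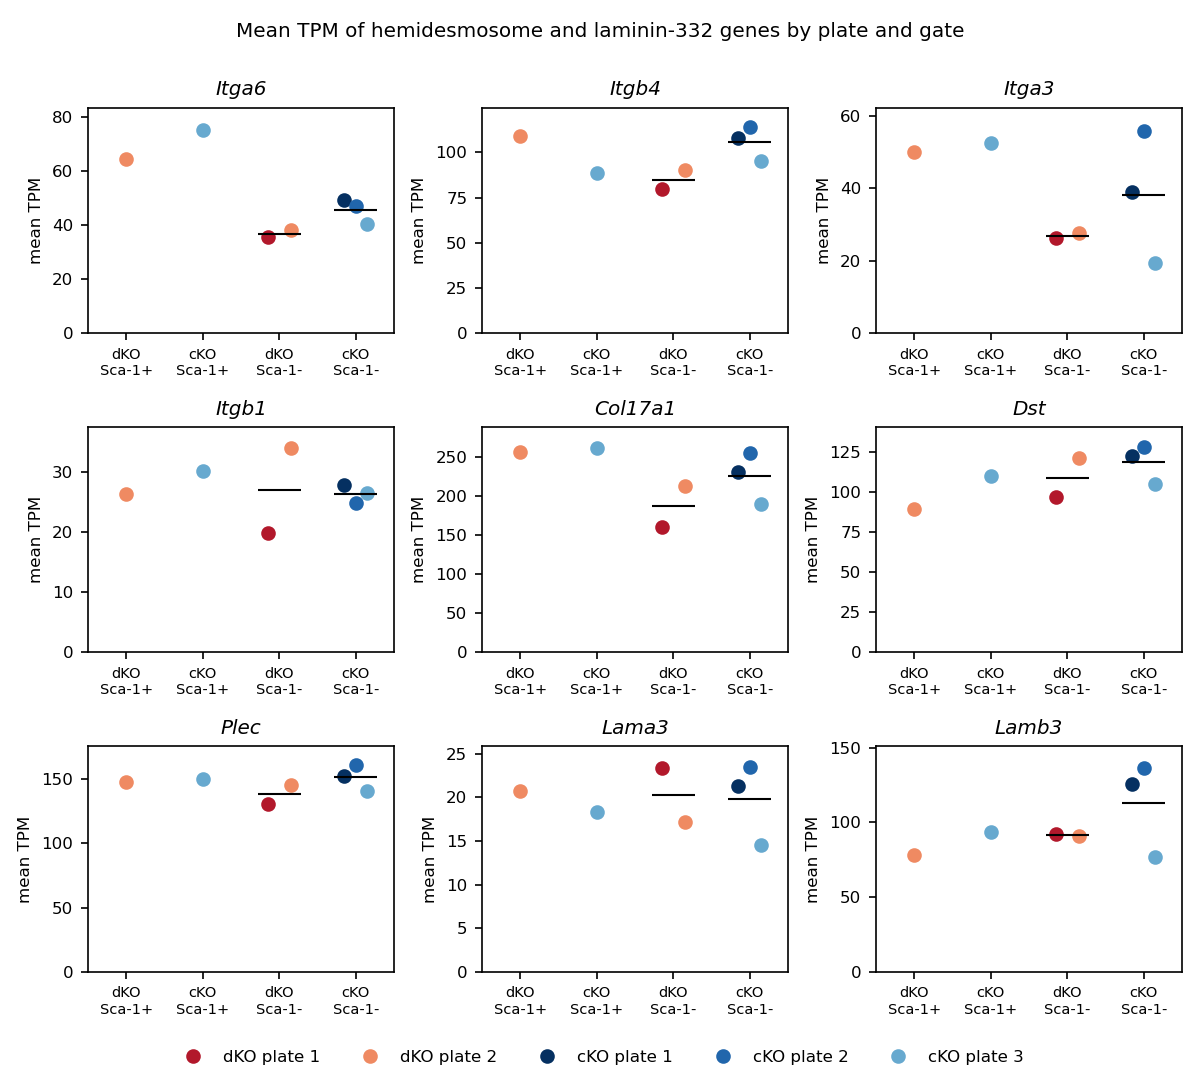
Mean TPM of each gene (y axis, from 0) in each plate, with the Sca-1-positive gate on the left and the Sca-1-negative gate on the right, and dKO before cKO within each gate. A point is the mean over the cells of 1 plate and a horizontal line the mean of the plates of a group; Itga6 stands at 64.2 and 75.2 TPM in the Sca-1-positive cells, above all 5 Sca-1-negative plates.

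Itga6 RNA was not detected in every cell sorted on integrin α6 protein. Itga6 reached 10 TPM, the level used here to call a cell positive, in 269 of 337 Sca-1-negative cells, and it was listed at 0 in 18 of the 337. By plate the share was 77.4% (67.6% to 85.4%, exact interval at the 95% level) and 83.6% (71.9% to 91.8%) of the dKO cells, against 80.3% (69.1% to 88.8%), 82.98% (69.2% to 92.4%) and 76.9% (64.8% to 86.5%) of cKO cells. These intervals overlap, and they cover counting error only. Plec was positive in 335 of the 337 cells, Dst in 326, Col17a1 in 319, Itgb4 in 304, Lamb3 in 285, Itgb1 in 221, Lama3 in 197 and Itga3 in 50.7% of them. Between cells of a plate Plec had a coefficient of variation of 0.521 to 0.577, and Itga3, the most variable of the 9, of 1.47 to 1.91. A Sca-1-negative cell was positive for a median of 8 of the 9 genes, and 62 of 337 cells for all 9. In the Sca-1-positive gate 10 of 19 dKO cells and 11 of 22 cKO cells were positive for all 9.

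The first question was whether the 2nd floxed NFIB allele went with a difference in these genes. None of the 9 met the rule used for genotype in Sca-1-negative cells, which asked for a ratio of at least 1.5 either way on the scale of (mean TPM + 1) and for plates of both genotypes that do not overlap. Over all 7060 measured genes 5.72% met it, 1.77% higher in dKO and 3.95% lower. The median log2 ratio of the 9 genes, dKO over cKO, was -0.27, and that of all measured genes was -0.12.

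Itga6, the α subunit of the hemidesmosome integrin, averaged 35.5 and 37.9 TPM on the dKO plates, against 49.3, 47.05 and 40.3 TPM on the cKO plates. Both dKO plates lay under all cKO plates, but the ratio was 0.81. Its partner Itgb4 averaged 79.5 and 90.1 TPM on the dKO plates, against 108.1, 113.8 and 95.04 TPM on the cKO plates. These means did not overlap, and the ratio was 0.80. In mean log2(TPM + 1) the Itgb4 plates did overlap, with 5.838 on dKO plate 2 and 5.821 on cKO plate 3. For Col17a1 the dKO plates stood at 160.3 and 213.2 TPM and the cKO plates at 231.1, 254.5 and 189.7 TPM, which overlap.

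Of the plakins, Dst averaged 96.97 and 121.2 TPM in dKO, against 122.8, 128.5 and 105.5 TPM in cKO, and Plec 130.98 and 145.5 TPM in dKO, against 152.9, 161.1 and 141.1 TPM in cKO. Both pairs overlapped. Of the laminin chains, Lamb3 stood at 92.2 and 90.99 TPM in dKO, between cKO plate 3 with 76.7 TPM and cKO plates 1 and 2 with 125.4 and 136.7 TPM. Lama3 averaged 23.4 and 17.2 TPM in dKO, against 21.3, 23.5 and 14.6 TPM in cKO.

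Itga3 differed widely between plates of 1 genotype. It averaged 26.2 and 27.6 TPM in dKO, against 38.9, 55.8 and 19.3 TPM in cKO, so cKO plate 3 lay below both dKO plates and cKO plates 1 and 2 above them. Without cKO plate 3, Itga3 met the rule as lower in dKO, with a log2 ratio of -0.79. Itgb1, whose product pairs with several α subunits, averaged 19.9 and 34.1 TPM in dKO, against 27.9, 24.9 and 26.5 TPM in cKO.

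The kinds of plates gave different values. On the plates with Xist RNA (dKO plate 1 against cKO plates 1 and 2) the median log2 ratio of the 9 genes was -0.43, where all genes had -0.23. On the plates with Y-linked RNA (dKO plate 2 against cKO plate 3) it was 0.20, where all genes had 0.04. Itga3 stood at -0.83 on the Xist plates and at 0.50 on the Y plates, and Col17a1 at -0.60 and 0.17. Itga6 and Itgb4 were below 0 on both kinds, with -0.43 and -0.48 on the Xist plates and -0.09 and -0.08 on the Y plates. The part of sex, animal or plate in these values cannot be told apart.

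**Figure D2:**
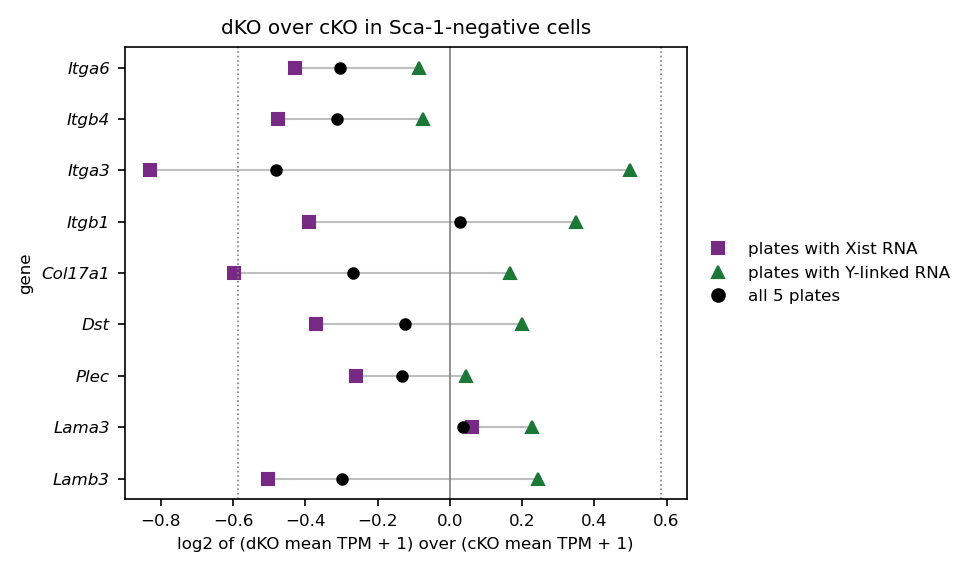
Log2 ratio of dKO over cKO (x axis, on the scale of mean TPM + 1) for each gene (y axis) in Sca-1-negative cells, for the plates with Xist RNA (squares), those with Y-linked RNA (triangles) and all 5 plates (circles). Dotted lines mark a ratio of 1.5 either way; Itga3 spans -0.83 to 0.50 and only Itga3 and Col17a1 pass a dotted line, on the Xist plates.

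Within the Cd34 classes described next, 0 of 9 genes met the genotype rule among Cd34-positive cells and 0 of 9 among Cd34-negative cells, where 9.6% and 7.54% of all genes did. This split was added after the data were seen. Among Cd34-positive cells Lamb3 averaged 93.7 TPM in dKO and 153.6 TPM in cKO, but with 70.99 TPM on cKO plate 3 the plates overlapped.

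Cd34 is the classical surface marker of bulge stem cells, and its RNA divided the Sca-1-negative cells. It was at 10 TPM or more in 91 of 337 of them (24.6% to 32.4% by plate). In the Sca-1-positive gate 0 of 41 cells reached this level, which allows a share of up to 7.32%, taken as 3 of the 41 cells and for counting error only. The Cd34-positive cells carried more Krt15, a keratin of the bulge, with 822 TPM against 284 TPM in Cd34-negative cells. They carried less of the basal keratin Krt14 (215 TPM in Cd34-positive, 996 TPM in Cd34-negative cells) and of Ly6a (0.342 TPM in Cd34-positive, 39.5 TPM in Cd34-negative cells).

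The hemidesmosome genes divided by Cd34 status, and they did not all go one way. Col17a1, Lama3 and Dst were higher in Cd34-positive cells, and Itga6 was lower. A gene met the rule here with a ratio of at least 1.5 either way, on (mean TPM + 1), and the same direction on all 5 plates. This was the case for 4 of the 9 genes and for 14.1% of the measured genes, with 3 of 9 higher where 5.95% of all genes were, and 1 of 9 lower where 8.17% were. The median log2 ratio of the 9 was 0.46, against 0.01 for all measured genes.

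Col17a1 averaged 320.5 ± 64.1 TPM in Cd34-positive cells and 168.2 ± 25.8 TPM in Cd34-negative cells (SD over 5 plates), 1.90-fold higher. On the dKO plates it was 216.1 and 325.7 TPM in Cd34-positive cells, against 141.9 and 173.2 TPM in Cd34-negative cells. On the cKO plates it was 335.2, 392.2 and 333.1 TPM in Cd34-positive cells, against 181.2, 201.9 and 142.8 TPM in Cd34-negative cells. The lowest Cd34-positive plate, dKO plate 1, lay above every Cd34-negative plate.

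Itga6 went the other way, with 25.5 ± 2.83 TPM in Cd34-positive cells and 48.4 ± 8.60 TPM in Cd34-negative cells, 1.86-fold lower. The plates ran from 22.2 to 28.6 TPM in Cd34-positive cells and from 39.6 to 60.5 TPM in Cd34-negative cells, with no overlap. Its partner Itgb4 averaged 122.03 ± 19.6 TPM in Cd34-positive cells and 87.7 ± 12.7 TPM in Cd34-negative cells, 1.39-fold higher on 5 of 5 plates but under the ratio of the rule. As a difference of mean log2(TPM + 1) it was 1.02, and it then met the rule. The pair therefore stood in different proportions. Itgb4 over Itga6, as a ratio of mean TPM, was 3.99 to 5.63 by plate in Cd34-positive cells and 1.49 to 1.99 in Cd34-negative cells. In the Sca-1-positive gate it was 1.70 on dKO plate 2 and 1.18 on cKO plate 3. These are RNA levels, and the protein was not measured.

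The laminin chain Lama3 averaged 28.6 ± 5.15 TPM in Cd34-positive cells and 16.7 ± 3.97 TPM in Cd34-negative cells, 1.67-fold higher. The plates overlapped narrowly between classes, with 21.6 TPM in Cd34-positive cells of cKO plate 3 and 22.1 TPM in Cd34-negative cells of dKO plate 1. Lamb3 was higher on 3 of 5 plates, with 175.9 and 213.8 TPM in Cd34-positive cells of cKO plates 1 and 2, against 101.1 and 107.2 TPM in Cd34-negative cells. On the other plates both classes lay between 70.99 and 98.5 TPM.

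Of the plakins, Dst averaged 152.99 ± 31.9 TPM in Cd34-positive cells and 101.1 ± 10.1 TPM in Cd34-negative cells, a ratio of 1.51 that only just met the rule. It no longer met it without dKO plate 2, cKO plate 2 or cKO plate 3, where the log2 ratio was 0.52, 0.53 and 0.57. Plec stood at 147.4 ± 12.8 TPM in Cd34-positive and 146.3 ± 15.6 TPM in Cd34-negative cells, higher on 2 plates and lower on 3. Itgb1 averaged 32.2 TPM in Cd34-positive and 24.7 TPM in Cd34-negative cells, a ratio of 1.29 with 5 of 5 plates higher, and Itga3 25.96 TPM in Cd34-positive and 36.7 TPM in Cd34-negative cells, with 1 plate higher and 4 lower.

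**Figure D3:**
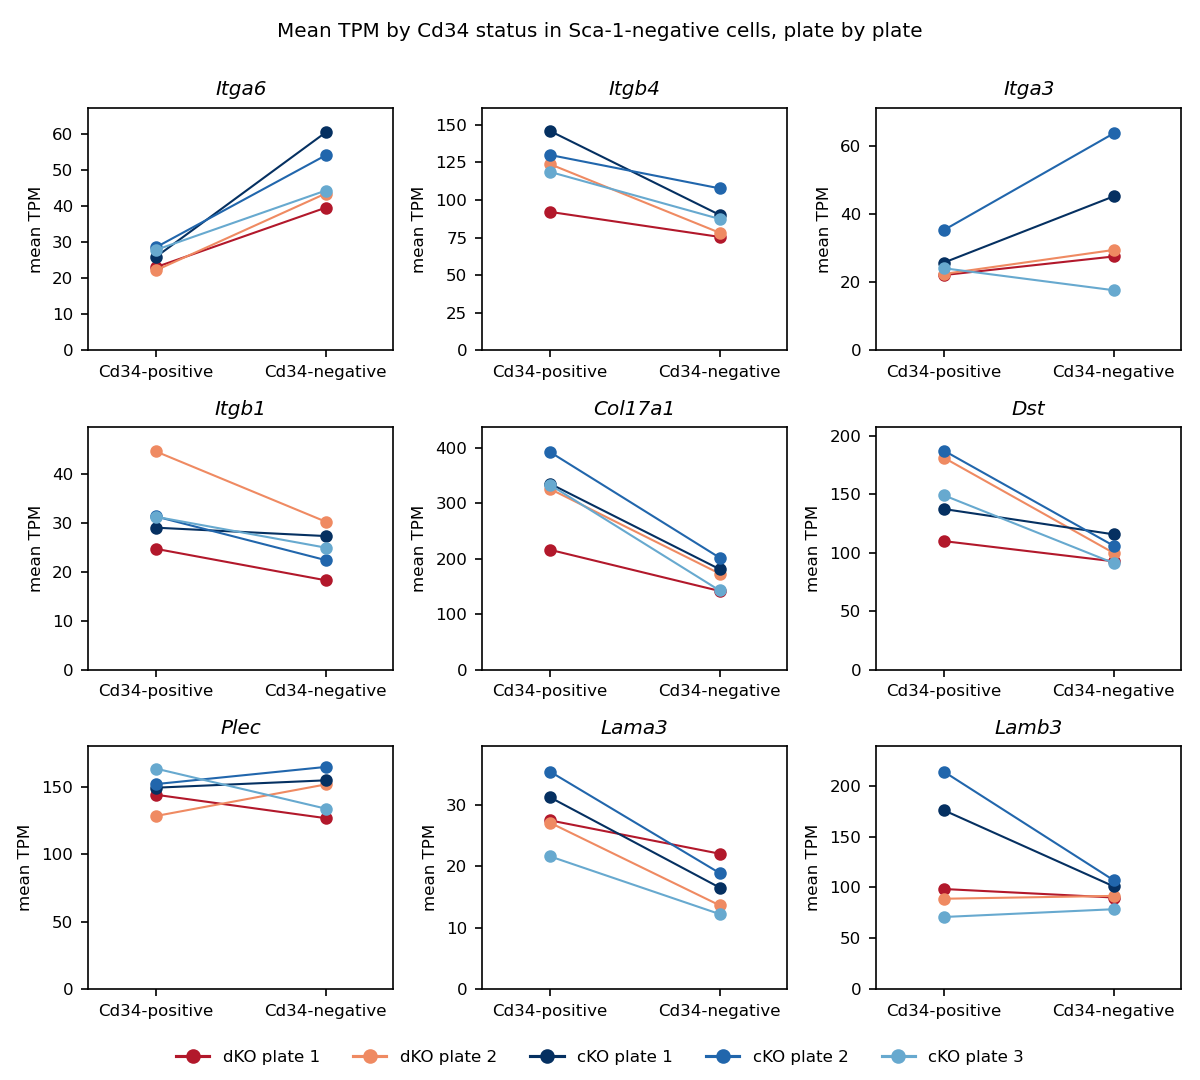
Mean TPM (y axis, from 0) in Cd34-positive and Cd34-negative cells of the Sca-1-negative gate, with a line for each of the 5 plates. All lines of Col17a1, Lama3 and Dst are higher at Cd34-positive and all lines of Itga6 lower there, while those of Plec, Itga3 and Lamb3 run both ways.

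The Cd34-negative cells were a mixed group, and markers of other cell states moved with the split. At least 3 suprabasal markers were found in 5 Cd34-positive and 81 Cd34-negative cells, and at least 3 sebaceous markers in 1 Cd34-positive and 13 Cd34-negative cells. The summed TPM of the 8 suprabasal genes ran from 34.8 to 160.7 by plate in Cd34-positive cells and from 129.2 to 796 in Cd34-negative cells. The median number of genes detected was lower in Cd34-positive cells on 4 of 5 plates. By plate Rn18s-rs5 took 52.7% to 61.9% of TPM in Cd34-positive cells and 55.8% to 61.4% in Cd34-negative cells. With it, the 4 next most abundant rows and the spike-ins removed, the same 4 genes met the rule, with log2 ratios of 0.90 for Col17a1, 0.77 for Lama3, 0.62 for Dst and -0.73 for Itga6. In the 210 Sca-1-negative cells, 78 of them Cd34-positive, with fewer than 3 markers of every other cell type, of suprabasal cells and of the cell cycle, Col17a1, Lama3 and Itga6 still met the rule, with log2 ratios of 0.63, 0.59 and -1.02, and Dst did not, with 0.45. The median of the 9 was then 0.15. With cells matched on genes detected, the log2 ratios were 0.86 for Col17a1, 1.05 for Lama3 and -1.05 for Itga6. These genes met the rule then, and Dst did not. Against Cd34-negative cells that lacked both Krt79 and Ly6a, a split added after the data were seen, Col17a1 (0.73) and Itga6 (-0.82) met the rule, and Lama3 (0.57) and Dst (0.23) did not.

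Splitting the Cd34-negative cells by Ly6a at 10 TPM, also after the data were seen, gave a graded order for Itga6. Itga6 averaged 64.2 and 75.2 TPM in the Sca-1-positive gate of dKO plate 2 and cKO plate 3, then 59.5 TPM (47.8 to 76.1 by plate) in Cd34-negative Ly6a-positive cells. In Cd34-negative Ly6a-negative cells it averaged 40.9 TPM (32.3 to 51.3), and in Cd34-positive cells 25.5 TPM (22.2 to 28.6). Over the plates the 2 Cd34-negative classes overlapped, but within each plate the Ly6a-positive class was the higher. The Ly6a-positive class also overlapped the Sca-1-positive gate, with 76.1 TPM on cKO plate 1. On dKO plate 2 and cKO plate 3 it lay below that gate, with 54.3 and 60.9 TPM. The Cd34-positive class lay below all others. For Col17a1 the order was another: 255.5 and 261.6 TPM in the Sca-1-positive gate, 153.1 to 234.6 TPM in Ly6a-positive and 123.5 to 178.9 TPM in Ly6a-negative Cd34-negative cells, and 216.1 to 392.2 TPM in Cd34-positive cells.

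**Figure D4:**
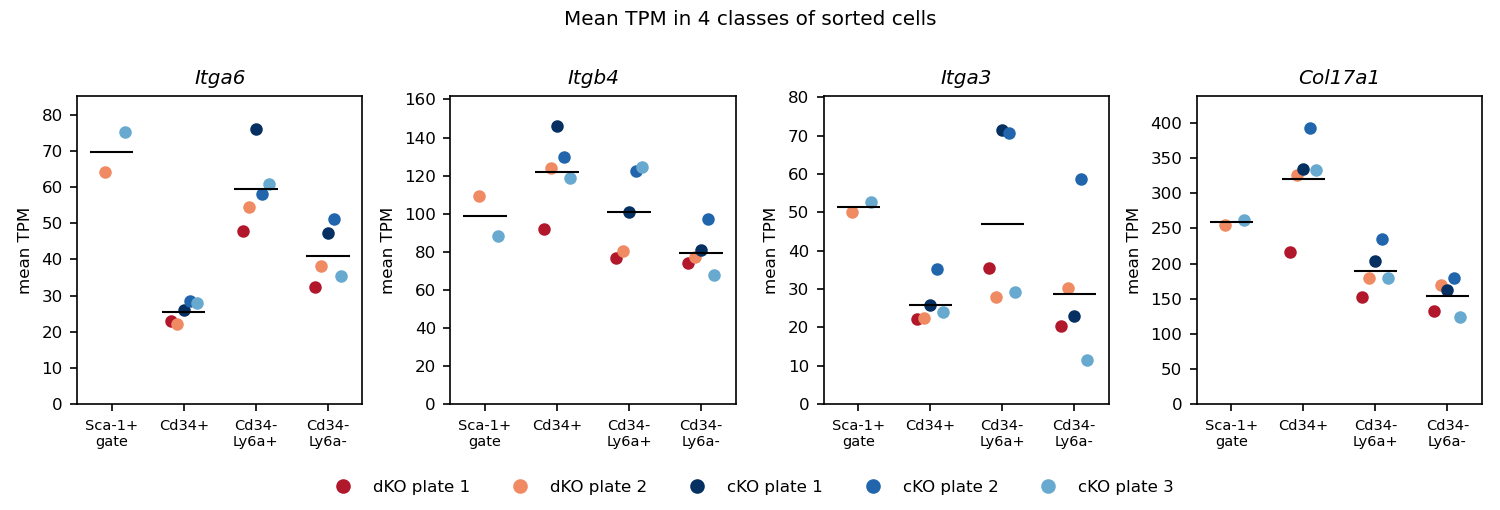
Mean TPM (y axis, from 0) of Itga6, Itgb4, Itga3 and Col17a1 in the Sca-1-positive gate and in 3 classes of the Sca-1-negative gate; a point is a plate and a horizontal line the mean of the plates shown. Itga6 is lowest in Cd34-positive cells, with 22.2 to 28.6 TPM, where Col17a1 is highest on average.

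By Sca-1 gate, both integrin α subunit genes had a higher mean in Sca-1-positive cells on both plates, and 1 of these 4 ratios passed the rule. The rule for gates, set within a single plate, asked that the ratio be 2 or more either way and that mean log2(TPM + 1) differ by 1 or more. On dKO plate 2, 0 of 9 genes met it where 13.7% of all genes did (3.07% higher, 10.7% lower). On cKO plate 3, 1 of 9 did, higher, where 7.92% of all genes did (1.93% higher, 5.99% lower). The median log2 ratio of the 9 was 0.26 on dKO plate 2, where all genes had -0.39, and 0.29 on cKO plate 3, where all genes had -0.24. Measured genes were chosen by level in Sca-1-negative cells alone, so genes high only in Sca-1-positive cells are missing from these shares and medians. With every gene detected in Sca-1-negative cells, the medians of all genes were -0.09 on dKO plate 2 and -0.05 on cKO plate 3. The shares that met the rule were then 4.53% and 2.68%. The Sca-1-positive cells lay in well rows A and B alone, so gate and row cannot be told apart. At least 3 suprabasal markers were found in 12 of 41 Sca-1-positive and 86 of 337 Sca-1-negative cells, and without marker-bearing cells the log2 ratio of Itga3 on cKO plate 3 was 1.34.

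The gene that met the rule was Itga3, with 52.6 TPM in Sca-1-positive and 19.3 TPM in Sca-1-negative cells of cKO plate 3, 2.65-fold higher. On dKO plate 2 it stood at 49.998 TPM in Sca-1-positive and 27.6 TPM in Sca-1-negative cells, a ratio of 1.78. With Rn18s-rs5, the 4 next most abundant rows and the spike-ins removed, Itga3 met the rule on dKO plate 2 too, with a log2 ratio of 1.05. Itga6 stood at 64.2 TPM in Sca-1-positive and 37.9 TPM in Sca-1-negative cells of dKO plate 2, a ratio of 1.68. On cKO plate 3 it stood at 75.2 TPM in Sca-1-positive and 40.3 TPM in Sca-1-negative cells, a ratio of 1.85, and neither met the rule. Without marker-bearing cells Itga6 met the rule on both plates and Itga3 on cKO plate 3 alone. Of all genes 20.2% then met it on dKO plate 2 and 15.6% on cKO plate 3. Col17a1 stood at 255.5 TPM in Sca-1-positive and 213.2 TPM in Sca-1-negative cells of dKO plate 2, and at 261.6 TPM in Sca-1-positive and 189.7 TPM in Sca-1-negative cells of cKO plate 3. Plec was close on both plates, at 147.9 TPM in Sca-1-positive and 145.5 TPM in Sca-1-negative cells of dKO plate 2, and at 150.6 TPM in Sca-1-positive and 141.1 TPM in Sca-1-negative cells of cKO plate 3. Itgb4, Itgb1, Dst and Lamb3 had ratios on opposite sides of 1 on the 2 plates. The basal keratin Krt14 met the rule on both, with 2821 TPM in Sca-1-positive and 577 TPM in Sca-1-negative cells of dKO plate 2, and 2294 TPM in Sca-1-positive and 806 TPM in Sca-1-negative cells of cKO plate 3.

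Between genotypes within the Sca-1-positive gate, 0 of 9 genes met the same rule, and 6.06% of all genes did (2.49% higher in dKO, 3.57% lower). Itga6 averaged 64.2 TPM in dKO and 75.2 TPM in cKO, Itgb4 109.2 TPM in dKO and 88.5 TPM in cKO, Dst 89.5 TPM in dKO and 110.5 TPM in cKO, and Lamb3 78.1 TPM in dKO and 93.8 TPM in cKO. Ratios of all 9 lay between 0.81 and 1.23. Each value rests on 1 plate a genotype.

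Other genes of the basement membrane were read from a list of 20, of which 13 were measured. By Cd34 status 6 of the 13 met the rule as higher in Cd34-positive cells, where 5.95% of all measured genes did. As lower 0 of the 13 met it, where 8.17% of all genes did, and the median log2 ratio of the 13 was 0.38. The largest ratios were those of Egfl6 (27.05 TPM in Cd34-positive and 1.82 TPM in Cd34-negative cells), which encodes a basement membrane protein of the bulge, and its relative Npnt, nephronectin (53.9 TPM in Cd34-positive and 13.3 TPM in Cd34-negative cells). Col18a1 (45.4 TPM in Cd34-positive and 12.4 TPM in Cd34-negative cells), a basement membrane collagen, and the laminin receptor Bcam (320.9 TPM in Cd34-positive and 136.2 TPM in Cd34-negative cells) followed, and the anchoring fibril collagen Col7a1 (90.3 TPM in Cd34-positive and 56.98 TPM in Cd34-negative cells) was also higher. By genotype 0 of the 13 met the rule, where 5.72% of all genes did, and their median was -0.23. Bcam averaged 155.9 TPM in dKO and 208 TPM in cKO, and Col7a1 64.03 TPM in dKO and 67.4 TPM in cKO. By gate 0 of the 13 were higher in Sca-1-positive cells on either plate. Of all genes 3.07% were higher on dKO plate 2 and 1.93% on cKO plate 3. On each plate 2 of the 13 were lower, where 10.7% and 5.99% of all genes were. Hspg2, perlecan, was among them on both, with 4.64 TPM in Sca-1-positive and 17.4 TPM in Sca-1-negative cells of dKO plate 2, and 1.46 TPM in Sca-1-positive and 16.8 TPM in Sca-1-negative cells of cKO plate 3. The others were Egfl6 on dKO plate 2 (0.605 TPM in Sca-1-positive, 14.1 TPM in Sca-1-negative cells) and Npnt on cKO plate 3 (3.41 TPM in Sca-1-positive, 18.8 TPM in Sca-1-negative cells). Between genotypes in the Sca-1-positive gate, Hspg2 alone of the 13 met the rule, higher in dKO as 2.49% of all genes were.

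Of 17 measured integrin adaptors of focal adhesions, 4 were higher in Cd34-positive cells and 0 lower. Of all measured genes 5.95% were higher and 8.17% lower. The actin cross-linker gene Actn1 averaged 59.2 TPM in Cd34-positive and 14.5 TPM in Cd34-negative cells, and the tensin gene Tns1 166.7 TPM in Cd34-positive and 47.9 TPM in Cd34-negative cells. Bcar1 averaged 7.95 TPM in Cd34-positive and 3.95 TPM in Cd34-negative cells, and Zyx 28.04 TPM in Cd34-positive and 15.2 TPM in Cd34-negative cells. By genotype Actn1 and Tns1 alone of the 17 met the rule, both lower in dKO, as 3.95% of all genes were. Actn1 averaged 20.3 TPM in dKO and 31.2 TPM in cKO, and Tns1 45.9 TPM in dKO and 103.8 TPM in cKO. By gate 5 of the 17 were lower in Sca-1-positive cells on dKO plate 2, where 10.7% of all genes were. On cKO plate 3, 3 of the 17 were lower, where 5.99% of all genes were. None of the 17 was higher, where 3.07% of all genes were on dKO plate 2 and 1.93% on cKO plate 3. Actn1 stood at 3.53 TPM in Sca-1-positive and 23.9 TPM in Sca-1-negative cells of dKO plate 2. On cKO plate 3 it stood at 4.13 TPM in Sca-1-positive and 30.4 TPM in Sca-1-negative cells. Of the other integrin subunits, 4 of 10 were measured, and 0 of the 4 met the rule by Cd34 status, where 14.1% of all genes did. Itgav averaged 22.2 TPM in Cd34-positive and 22.7 TPM in Cd34-negative cells, and Itgb6 12.6 TPM in Cd34-positive and 11.7 TPM in Cd34-negative cells. By genotype Itgb6 alone of the 4 met the rule, higher in dKO (18.7 TPM against 7.34 TPM in cKO), as 1.77% of all genes were. By gate Itgb8 was lower in Sca-1-positive cells on both plates, with 1.75 TPM in Sca-1-positive and 12.1 TPM in Sca-1-negative cells of dKO plate 2, and 0.762 TPM in Sca-1-positive and 8.16 TPM in Sca-1-negative cells of cKO plate 3. Itgb5 was lower on dKO plate 2, with 1.49 TPM in Sca-1-positive and 10.7 TPM in Sca-1-negative cells, and 0 of the 4 were higher on either plate. The shares of all genes by gate are those given for the adaptors. Of 13 measured desmosome and adherens junction genes, 2 were lower in Cd34-positive cells and 0 higher, where 8.17% and 5.95% of all genes were. The 2 were the desmosomal plakophilin Pkp1 (28.8 TPM in Cd34-positive and 95.6 TPM in Cd34-negative cells) and Jup, plakoglobin (194 TPM in Cd34-positive and 308 TPM in Cd34-negative cells). None of the 13 met the rule by genotype, where 5.72% of all genes did. Jup averaged 264 TPM in dKO and 286 TPM in cKO, and the junction gene Perp 218.03 TPM in dKO and 241 TPM in cKO. By gate, 2 of the 13 were lower in Sca-1-positive cells on dKO plate 2, where 10.7% of all genes were. They were Ctnnb1 (51.6 TPM in Sca-1-positive, 126.4 TPM in Sca-1-negative cells) and Ctnnd1 (21.5 TPM in Sca-1-positive, 46.2 TPM in Sca-1-negative cells). On cKO plate 3, 0 of the 13 were lower, where 5.99% of all genes were.

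Across the Sca-1-negative cells of a plate, the 9 genes varied together to unequal degrees. Pearson r over log2(TPM + 1), averaged over the 5 plates, was highest for Itgb4 and Col17a1 with 0.74 (0.60 to 0.84 by plate), then for Col17a1 and Lamb3 with 0.67, Itgb4 and Lamb3 with 0.62, and Col17a1 and Dst with 0.59. The partners of 1 complex were less alike, with 0.21 for Itga6 and Itgb4, 0.25 for Itga3 and Itgb1 and 0.26 for Lama3 and Lamb3. For Itga6 and Itgb4 the mean r was 0.14 in Cd34-positive cells (-0.15 to 0.83 by plate, over 13 to 23 cells) and 0.33 in Cd34-negative cells (0.17 to 0.46). The leading pairs also had lower values in Cd34-positive cells, with 0.34 for Itgb4 and Col17a1 (0.00033 to 0.65 by plate) and 0.25 for Col17a1 and Lamb3 (-0.23 to 0.44). In Cd34-negative cells these pairs had 0.74 (0.59 to 0.85) and 0.70 (0.58 to 0.79). These differences were not tested. All of these are descriptions over 47 to 93 cells a plate that share a library preparation and the fixed total of TPM. The mean log2 level of the 9 genes had a mean r of -0.12 with the number of genes detected.

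**Figure D5:**
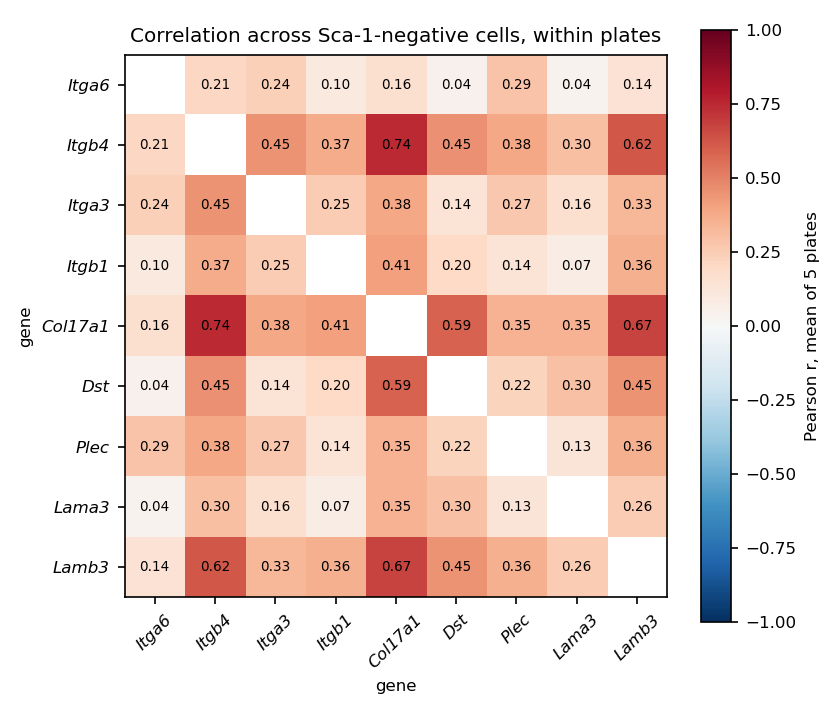
Pearson r between pairs of the 9 genes (both axes) over log2(TPM + 1) across the Sca-1-negative cells of a plate, as the mean of 5 plates, with red for positive values. Itgb4, Col17a1, Lamb3 and Dst form the block of high values, with 0.74 for Itgb4 and Col17a1, and Itga6 stays at 0.29 or less with every other gene.

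Among 1743 other genes of at least 20 TPM, those whose level followed the mean of the 9 most closely were the basal keratin Krt5 (mean r 0.65), the basement membrane proteoglycan gene Agrn (0.64), the ferritin light chain gene Ftl1 (0.60), the Notch ligand gene Jag2 (0.55) and Bcam (0.53). The median r over these genes was -0.01.

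The 9 genes lie on 7 chromosomes of GRCm38 (GENCODE vM21). Dst (33908225 to 34308661, plus strand) and Lamb3 (193207699 to 193343878, plus) are on chromosome 1, Itga6 (71745616 to 71858416, plus) on chromosome 2 and Itgb1 (128685654 to 128733200, plus) on chromosome 8. Itga3 (95044474 to 95076801, minus) and Itgb4 (115974709 to 116008412, plus) are on chromosome 11, Plec (76170974 to 76232574, minus) on 15, Lama3 (12333819 to 12583013, plus) on 18 and Col17a1 (47646344 to 47692094, minus) on 19. The protocol does not mark strand, and reads of overlapping genes cannot be told apart. The most abundant of these were Parp10, which overlaps Plec, with 9.76 TPM and Gm26788, which overlaps Dst, with 8.18 TPM. The others had at most 3.14 TPM.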

How the data were processed

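Single cells were sorted into plates, amplified by Smart-seq2 and sequenced in paired-end mode, per the labels' protocols. The authors deposited 1 table of TPM for 384 cells, and each column has the same total over its 46609 rows, of which 92 are spike-in RNAs. Bowtie2 2.2.9, RSEM 1.2.30 and the mm10 (GRCm38) build are named, per the submitters' processing notes, and no annotation is stated there. RSEM divides shared reads by a model, and TPM keeps no depth.

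Here 378 cells with at least 1000 genes at 1 TPM were kept. Mean TPM per plate was averaged over plates with equal weight and compared as the log2 of (mean + 1) over (mean + 1), which understates differences of low genes. A gene was measured at 5 TPM or more over the 5 Sca-1-negative plates. The rules for a difference are given with each comparison. They describe sizes and are not tests, and no error rate is given for them. Genes, lists and rules were chosen with earlier results of these data known. Genes named besides the 9 are, per list, up to 4 past the rule with the largest ratios or else the 2 with the highest TPM, the 5 most alike, and markers used for labels and splits; Col7a1 and the genes of the gate sentences beyond this were chosen after their values were seen. Intervals are exact (Clopper-Pearson), and the limit on a count of 0 is 3 counts of the total. Python 3.11.15, NumPy 2.4.6, pandas 2.3.3, SciPy 1.17.1 and matplotlib 3.10.9 were used. 1 gene of the basement membrane list is counted but not reported here by name.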

Additional observations from a re-analysis of the deposited data

Results flagged for a closer look

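For Lama3 by Cd34 status, the log2 ratio on dKO plate 1, 0.305, lay far below those of the other 4 plates; such a gap is found by chance in about 1 in 20 groups. The other results listed here are differences of log2 ratios on opposite sides of 0, each resting on few plates and not tested. For the ratio of Sca-1-positive over Sca-1-negative cells, dKO plate 2 minus cKO plate 3 gave 0.3748 for Itgb4, -0.5337 for Itgb1, -0.4993 for Dst and -0.5038 for Lamb3. For the ratio of dKO over cKO in Sca-1-negative cells, the plates with Y-linked RNA minus those with Xist RNA gave 1.3291 for Itga3, 0.7396 for Itgb1, 0.7642 for Col17a1, 0.5688 for Dst, 0.3045 for Plec and 0.7448 for Lamb3. All 6 of these ratios were above 0 on the Y plates and below 0 on the Xist plates.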

How the results depend on the processing

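The median log2 ratio by Cd34 status, 0.46, ran from 0.35 to 0.5076 when each plate was left out in turn, and was 0.7577 as a difference of mean log2(TPM + 1), 0.1459 without marker-bearing cells and 0.2266 against Cd34-negative cells without Krt79 and Ly6a, an alternative added after the data were seen. Col17a1 met the rule in 21 of 22 alternatives, Itga6 in 20, Lama3 in 19 and Dst in 12. In every comparison, alternatives that changed only which genes count as measured could not change the calls of the 9 genes. A lower ratio could not remove a call. Itga6 did not meet the rule with Cd34 called at 1 TPM, where its log2 ratio was -0.46, and none of the 9 did at a ratio of 2. Itgb4 met it in 2 alternatives, as a difference of mean log2(TPM + 1) and at a lower ratio, and Itgb1 in 1, with cells matched on genes detected (0.71). The share of all genes that met it ran from 7.39% to 18.8%. The median log2 ratio of all genes, 0.01 by Cd34 status, ran from -0.17 to 0.08 over the same alternatives. The median by genotype was 0.1986 on the plates with Y-linked RNA and -0.3769 to -0.1073 with each plate left out; Itga3 was lower in dKO by the rule without cKO plate 3 and on the Xist plates, and Col17a1 on the Xist plates, and the share of all genes ran from 1.86% to 22.9%. By gate, Itga3 met the rule in 14 of 15 alternatives on cKO plate 3 and in 5 of 15 on dKO plate 2, and Itga6 in 1 and 4. No gene that met a rule as reported changed sign, but Itga3 and Col17a1 by genotype, which met it on the Xist plates, were at 0.50 and 0.17 on the Y plates. The Cd34 classes were compared within each plate. No paired analysis was possible because, between genotypes, the labels name no animal that plates share. TPM gives no depth, so a gene listed at 0 may lie under detection.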
